A study of Mus musculus with 8 samples.

Results

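The 44 genes are stress transcription factors, other stress genes, enzymes that make amino acids and one-carbon units, amino acid transporters and cytosolic aminoacyl-tRNA synthetases. They were chosen by symbol, and every one of the 44 symbols was found in GENCODE M21 and among the 50143 Ensembl gene IDs of the deposited count table. All 44 had enough reads to be tested, as did 14887 genes in all. RNA was sequenced from 8 tumours of Py230, a mouse breast adenocarcinoma cell line, grown in mammary gland 4 of female C57BL/6 mice that had all been ovariectomized at an age of 6 weeks. The mice were put on their diets 2 weeks later and received the tumour cells after another 6 weeks. The 4 tumours called obese grew in mice on a high-fat diet, with 60% of calories as fat (5.1 kcal/g), whose average weight gain was 35%. The 4 tumours called lean grew in mice on a regular diet, with 10% of calories as fat (3.6 kcal/g), and all 8 were taken on day 56. All tumours come from 1 cell line, and the labels do not say whether the 4 tumours of a group came from separate mice, so the p-values measure the spread between these samples. The comparison asks which of these genes differ in RNA level between tumours of obese and of lean hosts.

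Cells that run short of an amino acid, or that are stressed in other ways, phosphorylate the translation factor eIF2. Most protein synthesis then slows, while the messenger RNA of the transcription factor ATF4 is translated more, and ATF4 with its partners switches on genes that import amino acids, make them and load them onto transfer RNA. ATF4 binds with C/EBP factors to composite sites called C/EBP-ATF response elements. In mammary tumours and other cancers the pathway is known for supplying serine, glycine, asparagine and one-carbon units to growing cells.

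The letters of that element, TGATGNAA on either strand (N is any base), were searched in RefSeq promoter windows of assembly GRCm38.p6, which run from 250 bases before to 50 bases after a RefSeq start. Windows were found for 33 of the 44 genes, and the other members, Slc7a5, Slc7a3, Slc1a5, Cars, Hars, Lars, Mars, Nars, Rars, Vars and Wars, were not searched. The letters stood in a window of 11 of the 33 genes (33.3%), against 4.51% of all 27025 genes with a window and 2.88% of the 11440 tested genes with one. They are given here for the 8 genes in which they lie wholly before the start, because these genes include the members with some of the largest differences. Each line runs 5′ to 3′ on the gene's own strand, with the matching letters in capitals (TTGCATCA and TTTCATCA are the element read on the opposite strand). Slc7a11 holds the letters at 2 places that face each other.
Asns (chr6:7693210-7693252, minus strand): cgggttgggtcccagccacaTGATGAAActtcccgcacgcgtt
Chac1 (chr2:119351029-119351076, plus strand): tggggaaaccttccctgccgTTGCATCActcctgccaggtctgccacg
Atf3 (chr1:191183416-191183463, minus strand): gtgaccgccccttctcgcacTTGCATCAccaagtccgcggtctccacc
Slc7a11 (chr3:50443633-50443699, minus strand): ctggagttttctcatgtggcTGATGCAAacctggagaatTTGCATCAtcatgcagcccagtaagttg
Gars (chr6:55037951-55037998, plus strand): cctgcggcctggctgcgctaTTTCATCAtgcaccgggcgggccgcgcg
Tars (chr15:11399659-11399693, minus strand): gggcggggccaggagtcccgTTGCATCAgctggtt
Aars (chr8:111033710-111033757, plus strand): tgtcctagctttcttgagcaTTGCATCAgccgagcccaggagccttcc
Pycr1 (chr11:120643824-120643871, minus strand): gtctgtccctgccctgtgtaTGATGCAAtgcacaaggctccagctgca
In Asns the first matching base lies 23 bases before the RefSeq start, in Gars 30, in Tars 15, in Atf3 110, in Aars 112, in Pycr1 103 and in Chac1 193. In Trib3, Iars and Yars the letters lie after the start, and Aars holds a second copy there. A match is a run of letters and was not tested for binding. The 44 genes were chosen as genes of this pathway, so their share with the letters is no result of these tumours. Copies outside the windows were not searched.

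Most of the 44 genes were higher in the tumours of obese mice. Of the 44, 35 rose, 1 fell and 8 did not pass the test, which was edgeR's quasi-likelihood test with Benjamini-Hochberg adjustment over all tested genes and a threshold of 0.05. Among all 14887 tested genes 30.9% were called higher and 28.4% lower (59.2% in either direction). With the letters of the response element in their window were 10 of the 26 searched genes that rose, 0 of the 6 searched genes that did not pass, and Pycr1, the 1 gene that fell. These counts are small, and a difference between them was not tested. The median log2 change, obese minus lean, was 1.03 over the 44 genes and −0.038 over all tested genes. By at least 2-fold, 22 of the 44 rose, as did 2568 of all 14887 tested genes. In 31 of the 44 genes all 4 obese tumours lay above all 4 lean tumours, and in 1 they all lay below. The same held for 28.9% and 28.1% of all tested genes. Levels below are CPM (read counts relative to the library total, scaled with TMM factors), given for replicates 1 to 4 of a group in that order, and log2 changes are given with their standard error (n = 4 tumours per group). In bulk tumour RNA, fewer cells of a type and less RNA per cell cannot be told apart.

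**Figure D1:**
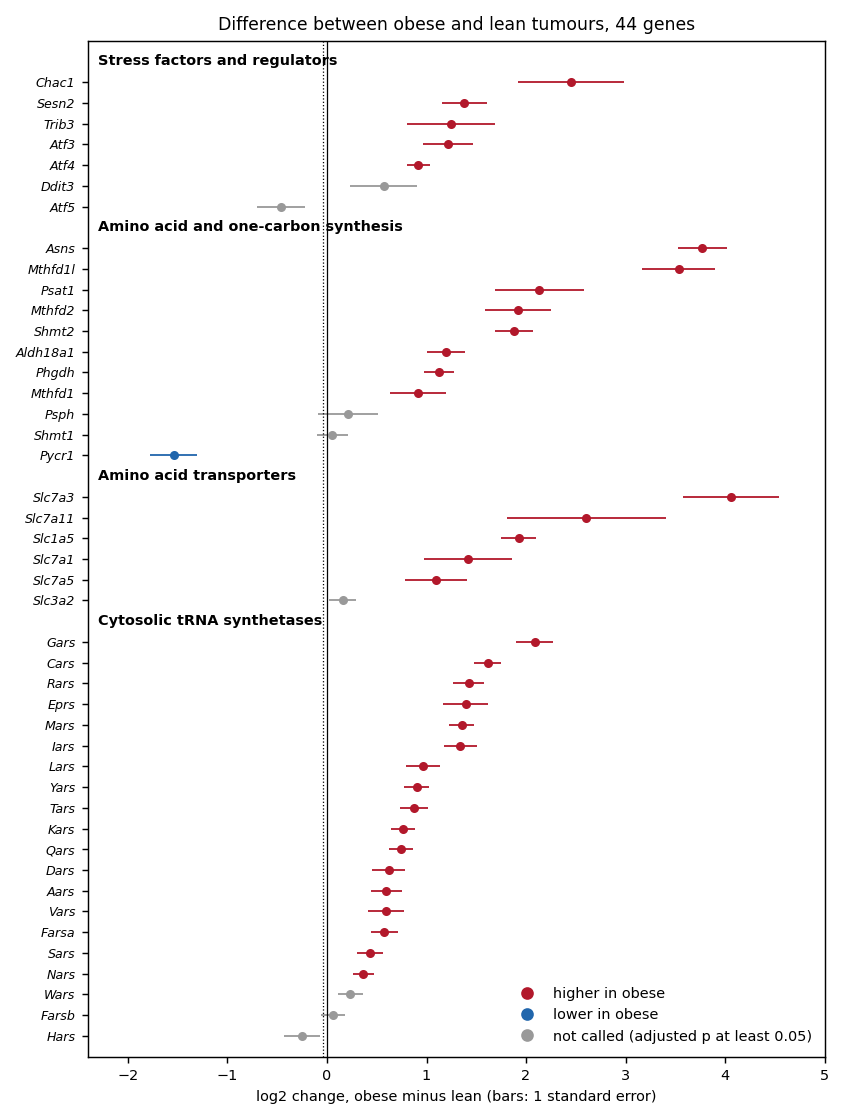
Log2 change between obese and lean tumours (x axis) for each of the 44 genes (y axis, in 4 role groups), with bars of 1 standard error. Red points passed the test as higher in obese tumours, blue as lower and grey did not pass, the solid line marks 0 and the dotted line the median of all tested genes. Of the 44 points 35 are red, 1 is blue and 8 are grey.

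The libraries held 25738356 to 66715063 counts, and where a library has 0 counts of a gene, up to 3 counts (0.0450 to 0.117 CPM, depending on the library) remain possible by counting error alone. Obese replicate 3 stood apart from the other obese tumours. On the first principal component it lay at 12.9, the other obese tumours at −136 to −96.5 and the lean tumours at 70.2 to 93.7. Without it 36 of the 44 genes passed as higher and 1 as lower, at a median log2 change of 1.10, and the 35 that rose with it were among them, while 31.1% of the genes then tested were called higher and 33.6% lower. Scaling shifted all genes together. With upper quartile factors the median of all tested genes moved by −0.21 and 41.2% of all calls were higher in obese tumours (3612 higher, 5145 lower), against 52.1% with TMM factors (4598 higher, 4221 lower). The members' median exceeded that of all tested genes by 1.07 under both. The epithelial markers Epcam, Krt8, Krt18, Cdh1, Krt5 and Krt14 summed to 62.6 to 699 CPM in obese and 1799 to 2782 CPM in lean tumours, 3 of the 6 fell and 0 rose (all 6 fell without obese replicate 3), and Krt5 and Krt14 had a count of 0 in obese replicate 1. Markers of other cells also moved with the groups. The 4 markers of B and plasma cells summed to 3.01 to 19.2 CPM in obese and 118 to 207 CPM in lean tumours, the 3 T cell markers to 5.95 to 23.6 CPM in obese and 27.5 to 78.2 CPM in lean tumours, and all 7 fell. The 4 macrophage markers summed to 552 to 683 CPM in obese and 303 to 507 CPM in lean tumours, where Cd68 and Adgre1 rose and Csf1r fell. The 4 markers of cycling cells summed to 1174 to 1755 CPM in obese and 359 to 867 CPM in lean tumours, where Top2a, Ccna2 and Cdk1 rose and Mki67 did not pass. Skeletal muscle markers summed to 1064 and 1013 CPM in lean replicates 1 and 4 and to 1.49 to 156 CPM in the other tumours, and 0 of the 4 passed (3 fell without obese replicate 3). The 5 fibroblast markers summed to 225 to 1440.4 CPM in obese and 430.3 to 617 CPM in lean tumours, where Pdgfra rose and Lum and Dcn fell. The 4 endothelial markers summed to 109.5 to 161 CPM in obese and 113 to 258 CPM in lean tumours, where Emcn fell, and the 4 adipocyte markers, none of which passed, to 3.54 to 118 CPM in obese and 20.9 to 109.9 CPM in lean tumours. The part of these cells in the differences below was not tested.

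Among the stress transcription factors and other stress genes, 5 of 7 rose (71.4%, against 30.9% of all tested genes), 0 fell and 2 did not pass. Their median log2 change was 1.22. Atf4 (ENSMUSG00000042406, chromosome 15, 80255184 to 80257541) encodes the transcription factor at the centre of the pathway. Its level was 536, 486, 434 and 529 CPM in the obese and 292, 268, 233 and 256 CPM in the lean tumours. The groups did not overlap, and each was narrow. The log2 change was 0.92 ± 0.12, or 1.89-fold (edgeR adjusted p = 0.000778). Because ATF4 is controlled largely at translation, its RNA level is not a measure of its protein.

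Chac1, which encodes an enzyme that degrades glutathione, had the largest log2 change of the 7. It stood at 10.9, 13.4, 7.41 and 7.37 CPM in obese and 3.22, 0.594, 1.19 and 2.15 CPM in lean tumours, a log2 change of 2.45 ± 0.53 (5.47-fold, edgeR adjusted p = 0.00613). Its window holds 1 copy of the response element letters shown above. Sesn2, a leucine-sensing inhibitor of the growth kinase complex mTORC1, stood at 50.7, 59.8, 29.4 and 36.1 CPM in obese and 15.3, 16.6, 18.2 and 17.5 CPM in lean tumours. Here the lean tumours were alike, and obese replicates 3 and 4 were lower than obese replicates 1 and 2 (log2 change 1.38 ± 0.23, edgeR adjusted p = 0.00209). Atf3, a stress-induced transcription factor, stood at 84.1, 65.6, 76.4 and 71.4 CPM in obese and 32.4, 17.3, 36.7 and 41.6 CPM in lean tumours and rose (1.22 ± 0.26, edgeR adjusted p = 0.00536), with lean replicate 2 lowest.

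Trib3, a pseudokinase that restrains ATF4, stood at 69.2, 78.6, 62.9 and 64.8 CPM in obese and 46.0, 8.53, 24.2 and 37.3 CPM in lean tumours. The obese tumours were alike and all above the lean tumours, which spread widely, with lean replicate 2 lowest. The log2 change was 1.25 ± 0.44 (edgeR adjusted p = 0.0392), and the call ended under 8 of 16 alternatives, among them leaving out obese replicate 1, 2 or 4 or lean replicate 3 or 4 (adjusted p 0.00226 to 0.0871). Ddit3 encodes CHOP, the transcription factor through which lasting stress can lead to cell death. Its level was 29.6, 37.5, 28.8 and 25.2 CPM in obese and 28.9, 9.08, 18.3 and 25.2 CPM in lean tumours, and the groups overlapped (log2 change 0.57 ± 0.33, edgeR adjusted p = 0.168). Ddit3 shares 68 exon bases with Mars on the opposite strand, and whether the counting used strand is not given in the sources used here. Atf5, a relative of ATF4 that is also controlled at translation, stood at 32.7, 59.2, 38.7 and 38.5 CPM in obese and 67.1, 37.7, 62.6 and 65.4 CPM in lean tumours. Lean replicate 2 lay with the obese tumours, and the gene did not pass (log2 change −0.46 ± 0.24, edgeR adjusted p = 0.131). Without lean replicate 2 or without obese replicate 2 it passed as lower, as it did with limma-voom and quality weights, with scaling by library size alone and with upper quartile factors (adjusted p 0.00358 to 0.281 over all alternatives).

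**Figure D2:**
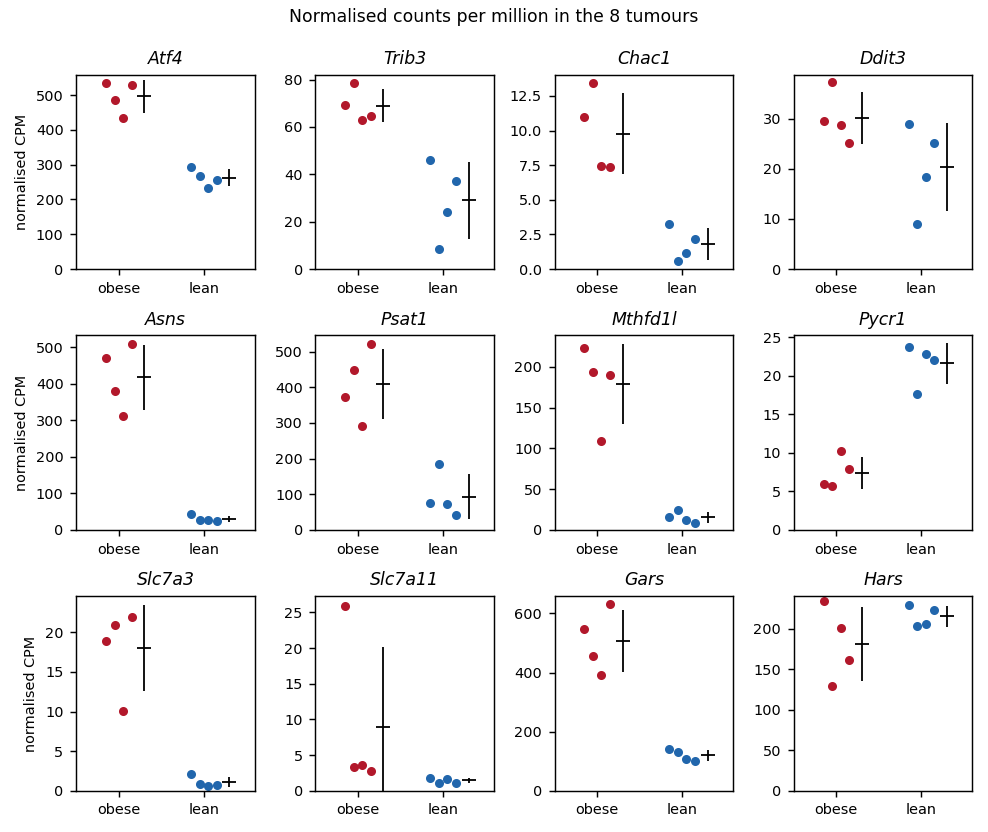
Normalised CPM (y axis, linear, from 0) of 12 of the genes in each obese (red) and lean (blue) tumour, replicates 1 to 4 from left to right, with the mean and SD beside the points (the SD bar of Slc7a11 in obese tumours is cut off at 0). Asns in the obese tumours lies between 311 and 508 CPM, against 24.9 to 43.0 CPM in the lean tumours, while Ddit3 and Hars overlap.

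Of 11 genes of amino acid and one-carbon synthesis 8 rose (72.7%, against 30.9% of all tested genes), 1 fell (9.09%, against 28.4%) and 2 did not pass, with a median log2 change of 1.20. Asns (ENSMUSG00000029752, chromosome 6, 7675169 to 7693254), which makes asparagine from aspartate and glutamine, stood at 470.0, 379.9, 311 and 508 CPM in obese and 43.0, 26.3, 28.2 and 24.9 CPM in lean tumours. The lowest obese tumour was far above the highest lean tumour. The log2 change of 3.77 ± 0.25, or 13.7-fold (edgeR adjusted p = 0.000159), was at place 276 from the top by log2 change among the 14887 tested genes. Asns per unit of Atf4 was 0.718 to 0.960 in obese and 0.0969 to 0.147 in lean tumours, as a ratio of CPM within a tumour that no scaling can change. This and the other ratios of gene pairs below were chosen after their values were seen and were not tested.

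The enzymes of serine synthesis from glucose did not all pass. Phgdh, the entry enzyme of that route, stood at 223, 164, 169 and 183 CPM in obese and 97.3, 89.6, 83.1 and 67.9 CPM in lean tumours (1.13 ± 0.15, edgeR adjusted p = 0.000912). Psat1, the aminotransferase that follows, stood at 373, 447, 292 and 521 CPM in obese and 74.6, 184, 72.7 and 41.5 CPM in lean tumours. Its groups did not overlap, and lean replicate 2 was the highest lean tumour (2.13 ± 0.45, edgeR adjusted p = 0.00543). Psph, the phosphatase of the last step, stood at 55.6, 36.5, 39.1 and 43.4 CPM in obese and 27.3, 62.6, 35.3 and 25.6 CPM in lean tumours. Its highest value was that of lean replicate 2, the groups overlapped and it did not pass (0.21 ± 0.30, edgeR adjusted p = 0.556), while without lean replicate 2 it passed with a log2 change of 0.57. The ratio of Psat1 to Psph was 6.71 to 12.2 in obese and 1.62 to 2.94 in lean tumours. Psph shares 10.4% of its exon bases with Cct6a on the opposite strand.

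Of the member genes of the folate cycle, the mitochondrial Shmt2, Mthfd2 and Mthfd1l had larger log2 changes than the cytosolic Shmt1 and Mthfd1, a difference that was not tested. Shmt2, which turns serine into glycine in mitochondria, stood at 475, 343, 255 and 371 CPM in obese and 109, 96.3, 95.9 and 90.8 CPM in lean tumours (1.88 ± 0.19, edgeR adjusted p = 0.000321). Shmt1, its cytosolic counterpart, stood at 56.5, 40.6, 53.9 and 50.2 CPM in obese and 52.8, 53.9, 48.3 and 38.6 CPM in lean tumours and did not pass (0.055 ± 0.15, edgeR adjusted p = 0.769). The ratio of Shmt2 to Shmt1 was 8.40, 8.43, 4.73 and 7.38 in the obese and 2.06, 1.79, 1.98 and 2.35 in the lean tumours, without overlap. Mthfd1l, whose product releases formate from mitochondria, stood at 223, 193, 108 and 190.2 CPM in obese and 16.2, 24.3, 12.4 and 8.90 CPM in lean tumours. Obese replicate 3 was the lowest obese tumour but stayed far above the lean tumours (3.53 ± 0.37, 11.6-fold, edgeR adjusted p = 0.000339). Mthfd2, the mitochondrial dehydrogenase and cyclohydrolase of the same route, stood at 139, 121, 87.8 and 126 CPM in obese and 25.6, 54.2, 26.3 and 19.1 CPM in lean tumours (1.92 ± 0.33, edgeR adjusted p = 0.00252). Mthfd1, the cytosolic enzyme that uses the formate, stood at 138, 179, 128 and 214 CPM in obese and 71.6, 137, 80.8 and 61.1 CPM in lean tumours. Lean replicate 2 lay above obese replicate 3. Mthfd1 rose by a log2 change of 0.91 ± 0.28 (edgeR adjusted p = 0.0237), and this call ended under 7 of 16 alternatives, among them leaving out obese replicate 2 or 4 or lean replicate 1, 3 or 4 (adjusted p 0.000140 to 0.0659). Mthfd2l, another mitochondrial gene of this route and no member, did not pass (0.47 ± 0.22, edgeR adjusted p = 0.0999) and was named after its values were seen. The ratio of Mthfd1l to Mthfd1 was 0.848 to 1.61 in obese and 0.146 to 0.226 in lean tumours.

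The proline genes went in opposite directions. Aldh18a1, whose product starts proline synthesis from glutamate, stood at 169, 222, 134 and 219 CPM in obese and 71.3, 98.8, 80.2 and 74.1 CPM in lean tumours (1.20 ± 0.19, edgeR adjusted p = 0.00185). Pycr1 (ENSMUSG00000025140, chromosome 11, 120635712 to 120643769), which makes proline in mitochondria in the last step, was the 1 member that fell. It stood at 5.95, 5.65, 10.2 and 7.85 CPM in obese and 23.8, 17.7, 22.8 and 22.1 CPM in lean tumours, and all obese tumours were below all lean tumours. The log2 change was −1.54 ± 0.24, so that lean tumours were 2.91-fold higher (edgeR adjusted p = 0.00156), and the call held in all 16 alternatives. Pycr1 also holds a copy of the response element letters (shown above). Of further proline genes, Pycrl fell (−0.72 ± 0.21, edgeR adjusted p = 0.0177, a call that ended without obese replicate 4, lean replicate 1 or lean replicate 4) and Prodh, which breaks proline down, rose (1.90 ± 0.23, edgeR adjusted p = 0.000621). Pycrl was named after its values were seen.

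Of 6 transporter genes 5 rose (83.3%, against 30.9% of all tested genes), 0 fell and 1 did not pass, with a median log2 change of 1.67. Slc7a3 (ENSMUSG00000031297, chromosome X, 101079210 to 101086020), a carrier of arginine and other cationic amino acids, had the largest log2 change of all 44 genes. It stood at 18.9, 20.97, 10.1 and 21.98 CPM in obese and 2.06, 0.862, 0.664 and 0.746 CPM in lean tumours, so the RNA was scarce in lean tumours (4.05 ± 0.48, 16.6-fold, edgeR adjusted p = 0.000543). Slc7a1, another cationic amino acid carrier, stood at 154, 189, 90.5 and 158 CPM in obese and 37.3, 108, 50.05 and 26.4 CPM in lean tumours. Lean replicate 2 was above obese replicate 3, and the lean tumours spread over a wide range. Slc7a1 rose (1.42 ± 0.44, edgeR adjusted p = 0.0252), and this call ended when obese replicate 2 or 4 or lean replicate 1, 3 or 4 was left out (adjusted p 0.000199 to 0.0682 over all alternatives). Slc1a5, a carrier of glutamine and other neutral amino acids, stood at 223, 166, 131 and 168 CPM in obese and 48.6, 49.6, 44.97 and 38.5 CPM in lean tumours. The lean tumours were alike, and the groups were far apart (1.92 ± 0.18, edgeR adjusted p = 0.000270).

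Slc3a2 encodes the heavy chain that carries the light chains Slc7a5 and Slc7a11 to the cell surface. Both light chain genes rose, and the heavy chain gene did not pass. Slc3a2 stood at 359.9, 379, 289.9 and 339 CPM in obese and 297, 364, 268 and 295 CPM in lean tumours, overlapped and did not pass (0.16 ± 0.14, edgeR adjusted p = 0.331). Slc7a5, the light chain of the exchanger for leucine and other large neutral amino acids, stood at 412, 428, 248 and 391 CPM in obese and 115, 289, 152 and 137 CPM in lean tumours. Lean replicate 2 lay above obese replicate 3. Slc7a5 rose (1.09 ± 0.31, edgeR adjusted p = 0.0182), and its call ended without lean replicate 3 or without lean replicate 4 (adjusted p 5.09e-05 to 0.0576 over all alternatives). The ratio of Slc7a5 to Slc3a2 was 0.856 to 1.16 in obese and 0.388 to 0.792 in lean tumours. Slc7a11, the light chain of the cystine and glutamate exchanger, stood at 25.8, 3.40, 3.60 and 2.74 CPM in obese and 1.82, 1.15, 1.72 and 1.14 CPM in lean tumours. Every obese tumour was above every lean tumour, but obese replicate 1 was far above all others. The log2 change of 2.61 ± 0.80 (edgeR adjusted p = 0.0237) was 1.17 without obese replicate 1, where it still passed. The call ended without lean replicate 2, 3 or 4 and with limma-voom (adjusted p 0.0139 to 0.0625 over all alternatives that gave one).

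Of the 20 cytosolic synthetase genes, whose enzymes join each amino acid to its transfer RNA, 17 rose (85%, against 30.9% of all tested genes), 0 fell and 3 did not pass. The median log2 change was 0.75, and 6 of the 20 rose by at least 2-fold, as did 2568 of all 14887 tested genes. The enzymes of Gars and Kars also serve mitochondria. In 16 of the 20 genes all obese tumours lay above all lean tumours, as in 28.9% of all tested genes. Gars (ENSMUSG00000029777, chromosome 6, 55038007 to 55079500), the glycyl-tRNA synthetase, had the largest log2 change. It stood at 546, 456, 393 and 632 CPM in obese and 140.3, 130.1, 107 and 100.1 CPM in lean tumours, without overlap and with all lean tumours close together (2.09 ± 0.19, 4.24-fold, edgeR adjusted p = 0.000250). Its window holds the letters shown above. Cars, the cysteinyl-tRNA synthetase, stood at 167, 149.7, 130.1 and 176 CPM in obese and 56.3, 54.1, 48.0 and 44.9 CPM in lean tumours (1.62 ± 0.13, edgeR adjusted p = 0.000200). Rars, for arginine, stood at 468, 349, 378 and 446 CPM in obese and 172, 172, 135 and 132 CPM in lean tumours (1.42 ± 0.15, edgeR adjusted p = 0.000369). In these genes too the lowest obese tumour was well above the highest lean tumour. Eprs, a fused enzyme for glutamate and proline, stood at 401, 408, 285 and 487 CPM in obese and 144, 209, 128 and 121 CPM in lean tumours (1.39 ± 0.23, edgeR adjusted p = 0.00198). Mars, for methionine, stood at 224, 194, 160.5 and 187 CPM in obese and 74.7, 81.3, 74.0 and 69.1 CPM in lean tumours (1.35 ± 0.13, edgeR adjusted p = 0.000270). Iars, for isoleucine, was the sixth gene past 2-fold, with 196, 205, 141 and 233 CPM in obese and 77.5, 88.0, 70.3 and 70.5 CPM in lean tumours (1.34 ± 0.17, edgeR adjusted p = 0.000680).

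A middle group rose by less than 2-fold with no overlap between the groups. Its log2 changes were 0.96 for Lars, 0.90 for Yars, 0.88 for Tars, 0.76 for Kars, 0.75 for Qars, 0.62 for Dars, 0.59 for Vars, 0.58 for Farsa, 0.43 for Sars and 0.37 for Nars. These serve leucine, tyrosine, threonine, lysine, glutamine, aspartate, valine, phenylalanine, serine and asparagine, and their edgeR adjusted p ran from 0.000973 (Yars) to 0.0222 (Vars). Nars and Sars had the smallest differences of the group. Nars stood at 521, 456, 465 and 529 CPM in obese and 418, 390.4, 357 and 363 CPM in lean tumours. Sars stood at 513, 441, 479 and 428 CPM in obese and 385, 281, 351 and 360.4 CPM in lean tumours. Aars, for alanine, rose with some overlap between groups, since lean replicate 2 lay above obese replicate 3. Its levels were 367, 388, 269.9 and 372 CPM in obese and 203, 280.1, 230.4 and 211 CPM in lean tumours (0.60 ± 0.16, edgeR adjusted p = 0.0137), and 14.3% of its exon bases are shared with Exosc6 on the same strand. The calls of Aars, Dars, Nars, Sars and Vars ended when counts were scaled by library size alone or by upper quartile factors. Leaving out lean replicate 3 also ended those of Nars, Sars and Vars, leaving out lean replicate 4 those of Aars and Nars, leaving out obese replicate 4 that of Nars and leaving out obese replicate 1 that of Vars. The adjusted p over all alternatives spanned 0.000137 to 0.0572 for Aars, 8.63e-05 to 0.0623 for Dars, 0.000726 to 0.240 for Nars, 0.00808 to 0.186 for Sars and 0.00122 to 0.0984 for Vars.

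The 3 synthetase genes that did not pass were Wars, Farsb and Hars. Wars, for tryptophan, stood at 105, 122, 89.2 and 121 CPM in obese and 90.5, 97.1, 96.4 and 87.3 CPM in lean tumours (0.23 ± 0.12, edgeR adjusted p = 0.133), and it passed as higher without obese replicate 3. Hars, for histidine, stood at 235, 129.8, 201 and 161 CPM in obese and 229.9, 204, 206 and 223 CPM in lean tumours (−0.25 ± 0.18, edgeR adjusted p = 0.262). The lean tumours were alike and the obese tumours lay on both sides of them, and 7.97% of its exon bases are shared with Hars2 on the opposite strand. Farsb stood at 187, 141, 180.5 and 183 CPM in obese and 159, 181, 163 and 158 CPM in lean tumours (0.064 ± 0.12, edgeR adjusted p = 0.660). It shares 9.47% of its exon bases with Sgpp2 on the opposite strand. Farsb and Farsa encode the chains of one enzyme, for phenylalanine, and Farsa rose (0.58 ± 0.14, edgeR adjusted p = 0.00843) from 88.0, 72.2, 77.7 and 78.4 CPM in lean to 144, 108, 101 and 119 CPM in obese tumours. The ratio of Farsa to Farsb was 0.560 to 0.770 in obese and 0.398 to 0.553 in lean tumours, with a narrow gap between the groups. Of the 8 listed synthetases that are bound in the multi-synthetase complex (Dars, Eprs, Iars, Kars, Lars, Mars, Qars and Rars) 8 rose, with a median log2 change of 1.15. Of the 12 others 9 rose, with a median of 0.58, while 30.9% of all tested genes were called higher. This division was made after the values were seen and was not tested.

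**Figure D3:**
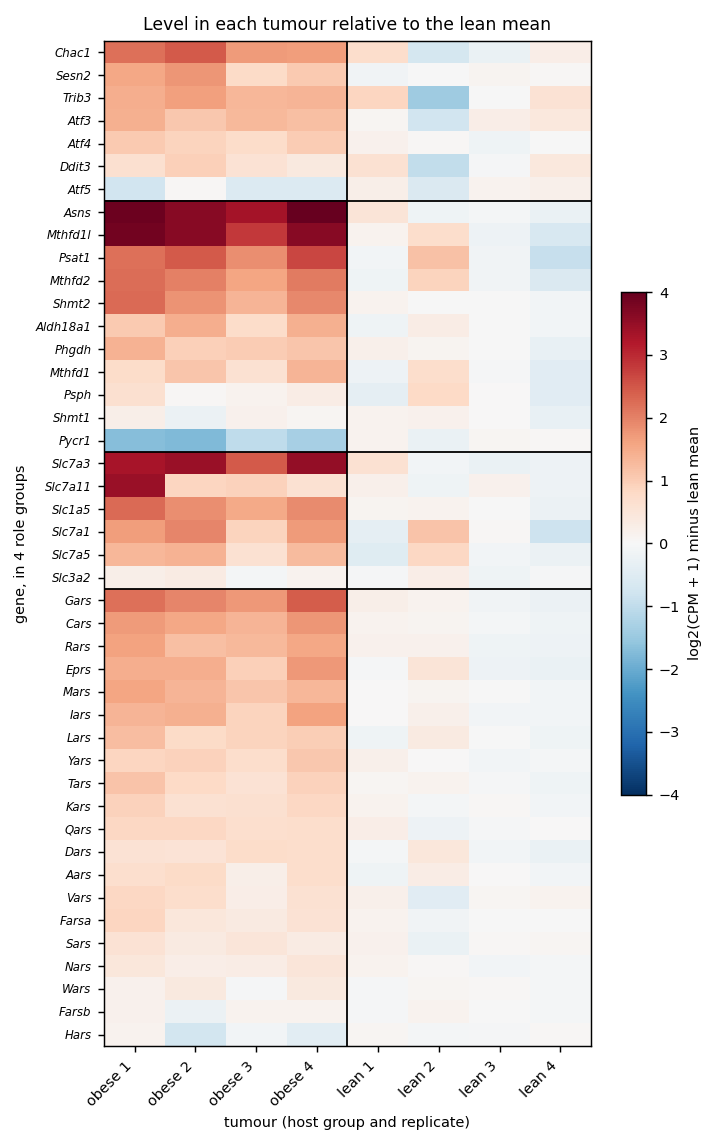
Level of the 44 genes (rows, in the 4 role groups) in each of the 8 tumours (columns) as log2(CPM + 1) minus the mean of the 4 lean tumours, red higher and blue lower. The obese columns are red in most rows and palest in obese replicate 3, and Pycr1 is blue in all 4 obese tumours.

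The members differed in level as well as in change. Per kilobase of exon, which allows genes to be compared, Atf4 was the highest of the 44 in both groups, at 210.4 ± 20 CPM per kb in obese and 111 ± 10.3 in lean tumours. In lean tumours Hars (88.2 ± 5.23 CPM per kb), Nars (87.7 ± 6.41) and Slc3a2 (86.8 ± 11.7) came next and lay within an SD of each other. In obese tumours Gars (162 ± 33.4 CPM per kb), Asns (153 ± 32.4) and Rars (127 ± 17.4) followed, of which Gars and Asns lay within an SD of each other. Asns stood at 11.2 ± 3.06 CPM per kb in lean tumours. The lowest levels in lean tumours were those of Slc7a11 (0.105 ± 0.0261 CPM per kb), Slc7a3 (0.286 ± 0.174) and Chac1 (1.09 ± 0.701).

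The tumours of a group were not interchangeable. Obese replicate 3 was the lowest obese tumour in 27 of the 44 genes (61.4%), against 26.0% of all tested genes, and obese replicate 1 the highest in 21 (47.7%), against 20.1%. Obese replicate 3 was the lowest obese tumour in Slc7a3, Mthfd1l and Slc7a1, where its ratio to the mean of the other obese tumours was 0.490, 0.537 and 0.542, while in Pycr1 the ratio was 1.58. Among lean tumours, lean replicate 4 was the lowest in 22 genes (50%, against 24.4% of all tested genes). Lean replicate 1 was the highest in 21 genes (47.7%, against 24.8%). Lean replicate 2 was also the highest in 21 (47.7%, against 38.8%) and the lowest in 11 (25%, against 40.7%). It was the highest lean tumour for Psat1, Psph, Mthfd1, Mthfd2, Mthfd1l, Slc7a1 and Slc7a5, and the lowest for Trib3, Ddit3, Chac1, Atf3 and Atf5.

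Lists of related genes put these values into the wider pathway. Of 16 genes for eIF2, its kinases and the factors that act on it, 9 rose (56.3%, against 30.9% of all tested genes), 1 fell and 6 did not pass, with a median of 0.38. The kinase that senses uncharged transfer RNA, Eif2ak4 (GCN2), stood at 45.6, 55.8, 46.2 and 52.8 CPM in obese and 28.3, 39.2, 31.5 and 30.2 CPM in lean tumours and rose (0.63 ± 0.14, edgeR adjusted p = 0.00666). Eif2ak2 (PKR), which senses double-stranded RNA, rose too (0.86 ± 0.15, edgeR adjusted p = 0.00267). Eif2ak3 (PERK), of the endoplasmic reticulum, and Eif2ak1 (HRI) did not pass (0.24 ± 0.15 and −0.10 ± 0.13, edgeR adjusted p = 0.210 and 0.541). Neither did Gcn1l1, which activates GCN2, or Impact, which inhibits it (0.21 ± 0.18 and −0.046 ± 0.30, edgeR adjusted p = 0.323 and 0.903), although Gcn1l1 passed without obese replicate 3. Ppp1r15a (GADD34), which directs the removal of the phosphate from eIF2, stood at 109, 94.8, 63.9 and 69.1 CPM in obese and 27.9, 15.6, 18.7 and 22.9 CPM in lean tumours. Its groups were far apart (1.98 ± 0.24, edgeR adjusted p = 0.000634). The eIF2 subunit genes Eif2s1 (1.51 ± 0.23, edgeR adjusted p = 0.00153) and Eif2s2 (1.29 ± 0.19, edgeR adjusted p = 0.00143) rose.

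Other known ATF4 targets and partners split. Of 20 tested genes of 21 listed, 10 rose (50%, against 30.9% of all tested genes), 5 fell (25%, against 28.4%) and 5 did not pass, with a median of 0.69. Got1, an aspartate aminotransferase, stood at 164, 174, 119 and 183 CPM in obese and 26.7, 17.3, 19.2 and 22.8 CPM in lean tumours (2.89 ± 0.20, edgeR adjusted p = 0.000159). Eif4ebp1, an inhibitor of translation initiation, Lonp1, a mitochondrial protease, and Sqstm1, an autophagy receptor, also rose (2.09 ± 0.23, 1.29 ± 0.16 and 1.46 ± 0.23, edgeR adjusted p = 0.000408, 0.000603 and 0.00177). The 5 that fell, named after their values were seen, were Stc2, Cth, Vldlr, Ddit4 and Cars2. Ddit4, an inhibitor of mTORC1, stood at 67.2, 39.5, 59.4 and 32.9 CPM in obese and 164, 119, 139 and 106 CPM in lean tumours. Stc2, a secreted glycoprotein, stood at 0.372, 0.429, 0.851 and 0.264 CPM in obese and 2.33, 64.8, 29.4 and 9.52 CPM in lean tumours, and its log2 change of −5.77 was −4.83 without lean replicate 2. Cth, which makes cysteine, stood at 0.124, 0, 0.541 and 0.0480 CPM in obese and 1.498, 8.32, 2.73 and 1.40 CPM in lean tumours, its call ended without obese replicate 4, and its log2 change of −4.25 was −6.17 without obese replicate 3. Vldlr, a lipoprotein receptor, stood at 1.20, 1.02, 36.8 and 4.20 CPM in obese and 66.4, 142, 102 and 78.6 CPM in lean tumours, so that obese replicate 3 lay between the groups. The call of Vldlr ended without any one of the other 7 tumours and with no filter on low counts, and its log2 change of −3.17 was −5.49 without obese replicate 3. Xpot, which exports transfer RNA from the nucleus, and the scaffold genes Eef1e1 and Aimp1 rose (2.19 ± 0.20, 0.88 ± 0.16 and 0.49 ± 0.10, edgeR adjusted p = 0.000253, 0.00316 and 0.00558), and Aimp2 did not pass (0.30 ± 0.17, edgeR adjusted p = 0.152). The call of Aimp1 ended with upper quartile factors.

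Separate genes for mitochondrial tRNA synthetases, the enzymes that serve mitochondrial translation, had shares of calls near those of all tested genes. Of 17, 5 rose (29.4%, against 30.9% of all tested genes), 6 fell (35.3%, against 28.4%) and 6 did not pass, with a median of −0.15. Gars and Kars, which serve both cytosol and mitochondria and have no separate gene in this list, were counted with the cytosolic genes. Mars2 and Iars2 rose (0.88 ± 0.15 and 0.81 ± 0.17, edgeR adjusted p = 0.00258 and 0.00582) and Cars2 fell (−0.83 ± 0.17, edgeR adjusted p = 0.00518). In 16 pairs of a cytosolic and a mitochondrial gene for the same amino acid, the cytosolic log2 change was the larger in 15, the exception being asparagine. The within-tumour ratio of the cytosolic to the mitochondrial gene was higher in all obese than in all lean tumours for 11 of the 16 pairs, lower for 0 and overlapping for 5. For cysteine the ratio of Cars to Cars2 was 11.8, 13.0, 7.07 and 11.3 in the obese and 2.01, 2.22, 1.84 and 1.63 in the lean tumours. For arginine the ratio of Rars to Rars2 was 7.52 to 15.9 in obese and 2.38 to 3.17 in lean tumours. Lars2, named after its values were seen, stood at 3265, 3274, 2779 and 1275 CPM in obese and 2041, 1138, 1439.5 and 3151 CPM in lean tumours and did not pass (0.45 ± 0.39, edgeR adjusted p = 0.341).

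**Figure D4:**
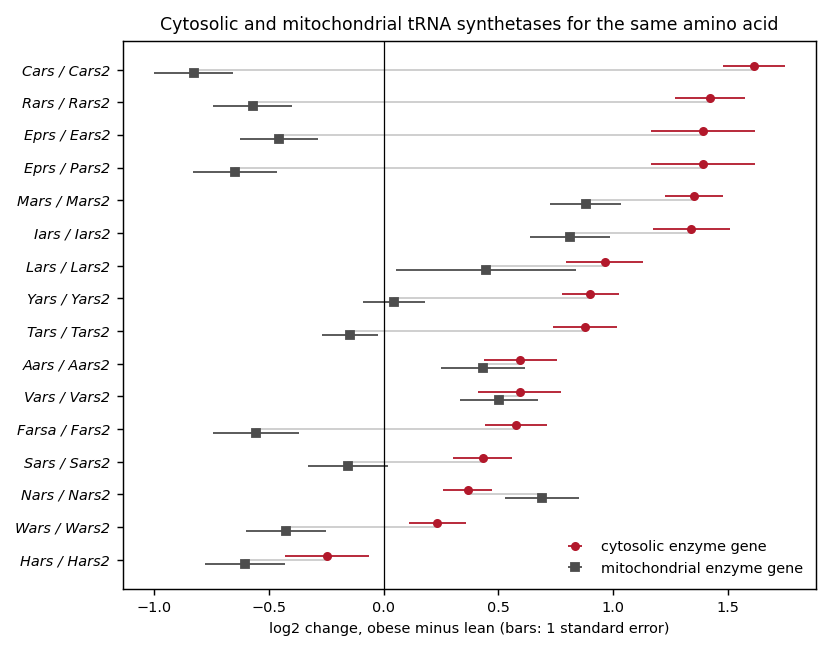
Log2 change between obese and lean tumours (x axis) of the cytosolic (red circles) and the mitochondrial (grey squares) synthetase gene for each of 16 pairs that serve the same amino acid, with bars of 1 standard error. The red circle lies to the right in 15 pairs, and the grey squares lie on both sides of 0.

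Of 18 further enzymes of serine, glycine, proline, glutamine and folate metabolism 7 rose (38.9%, against 30.9% of all tested genes), 5 fell (27.8%, against 28.4%) and 6 did not pass. The alanine aminotransferase gene Gpt stood at 2.31, 3.03, 2.63 and 3.55 CPM in obese and 7.96, 7.01, 7.38 and 6.84 CPM in lean tumours and fell (−1.34 ± 0.24, edgeR adjusted p = 0.00284). Of 19 tested genes of 20 further transporters 5 rose and 5 fell (26.3% each), shares close to those of all tested genes, with a median of 0.020. Slc38a1, a glutamine carrier, stood at 237, 244, 135 and 237 CPM in obese and 20.7, 14.03, 14.8 and 13.96 CPM in lean tumours (3.75 ± 0.25, edgeR adjusted p = 0.000159). Slc7a6, a light chain that also pairs with Slc3a2, stood at 153, 108, 97.9 and 127 CPM in obese and 14.98, 6.71, 6.28 and 5.98 CPM in lean tumours (3.84 ± 0.36, edgeR adjusted p = 0.000273). The taurine carrier gene Slc6a6 rose (1.96 ± 0.28, edgeR adjusted p = 0.00120) and Slc43a1, a carrier of large neutral amino acids, fell (−2.36 ± 0.51, edgeR adjusted p = 0.00601).

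Genes of the unfolded protein response of the endoplasmic reticulum, another pathway that can raise ATF4, were mixed. Of 21 such genes 9 rose (42.9%, against 30.9% of all tested genes), 5 fell (23.8%, against 28.4%) and 7 did not pass, with a median of 0.15. Atf6, a stress sensor, Edem1, of the degradation of misfolded proteins, and the chaperone genes Canx and Pdia6 rose (1.63 ± 0.14, 1.31 ± 0.15, 1.24 ± 0.18 and 0.91 ± 0.17, edgeR adjusted p = 0.000216, 0.000425, 0.00134 and 0.00334). Hspa5, the most widely used marker of this response, did not pass and overlapped between the groups, with 1888, 1384, 1853 and 1542 CPM in obese and 2450.4, 1741, 1375 and 1443 CPM in lean tumours. Xbp1, the transcription factor of another arm, fell from 545, 396, 513 and 529 CPM in lean to 235, 167, 377 and 183 CPM in obese tumours (−1.04 ± 0.26, edgeR adjusted p = 0.0113). Hspa5 and Xbp1 were named after their values were seen.

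**Figure D5:**
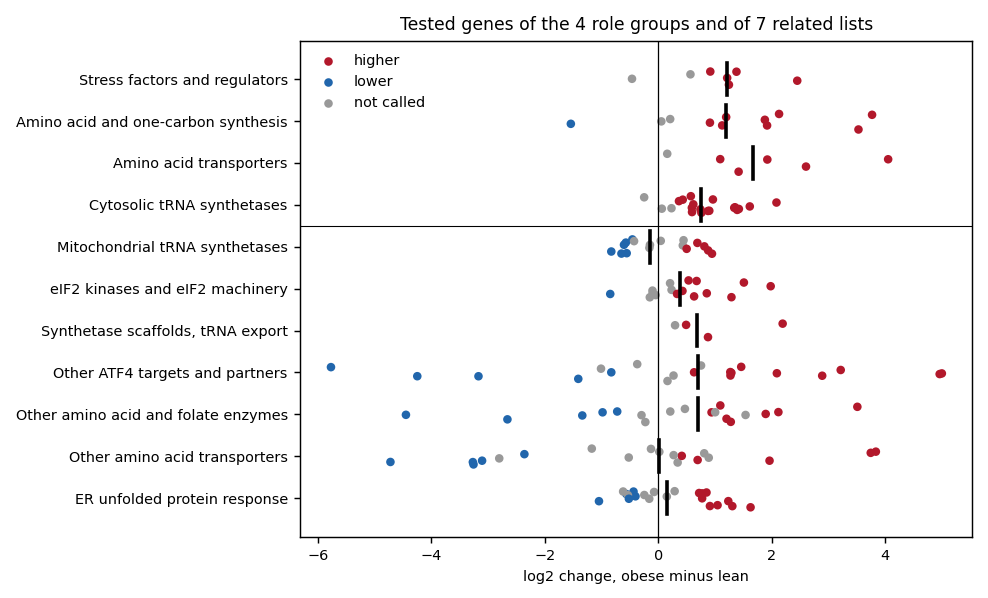
Log2 change between obese and lean tumours (x axis) of the tested genes of the 4 role groups (above the line) and of 7 related lists (below it), 1 point per gene with vertical jitter, red called higher, blue called lower and grey not called. Black bars are medians, which lie between 0.75 and 1.67 in the 4 role groups and between −0.15 and 0.71 in the related lists.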

How the data were processed

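Gene expression was measured by RNA sequencing (TruSeq stranded mRNA libraries, per the labels' protocols) in 8 tumours, 4 per host diet. The deposited values are whole-number counts of reads per Ensembl gene. Per the submitters' processing notes the authors used CASAVA 1.8, bcl2fastq 2.18.0.12, cutadapt 1.12, STAR 2.5.2b and HTSeq with mm10, and the gene annotation and strand setting are not given in the sources used here. Symbols, positions and exon lengths came from GENCODE M21, and 817 IDs had no symbol. Genes were kept with edgeR's filterByExpr (minimum count 10, minimum total 15). Counts were scaled with TMM factors and tested with edgeR 4.0.16 in R 4.3.3 (robust quasi-likelihood test, two-sided, obese against lean), with Benjamini-Hochberg adjustment and a threshold of 0.05. The standard error of a log2 change is its size divided by the square root of F. The fit was tested on simulated data, where most of the smaller changes did not pass, so a gene that did not pass is not shown to be equal between the groups. Alternatives used limma 3.58.1, DESeq2 1.42.0, other scalings and filters, and left out each tumour in turn. Members and lists were chosen with earlier results of these data known. Every member was to be accounted for, and of each related list up to 4 genes with the smallest adjusted p were named, besides the eIF2 kinases, Gcn1l1 and Impact (a few genes of these lists are counted but not reported here by name, and 1 pair of synthetase genes was left out). Levels were compared between genes only per kilobase of exon.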

Additional observations from a re-analysis of the deposited data

Results flagged for a closer look

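Single tumours stood apart from the other 3 of their group in 4 of 88 cases (44 genes in 2 groups), where the gap to the nearest tumour, divided by the range of the group, was above Dixon's 95% critical value. Chance flags about 1 in 20 groups. Slc7a11, the cystine exchanger gene, was at 25.8 CPM in obese replicate 1 and at 2.74 to 3.60 CPM in the other obese tumours. Slc7a3, the cationic amino acid carrier gene, was at 2.06 CPM in lean replicate 1 and at 0.664 to 0.862 CPM in the other lean tumours. Atf5 was at 37.7 CPM in lean replicate 2 and at 62.6 to 67.1 CPM in the other lean tumours. Farsb was at 141 CPM in obese replicate 2 and at 180.5 to 187 CPM in the other obese tumours.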

How the results depend on the processing

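Under 16 alternatives, 8 of which left out 1 tumour each, 25 of the 35 genes that rose did so throughout, 10 lost the call under at least 1, and Pycr1 fell throughout. No called member changed sign. The number of members that rose was 37 with limma-voom and quality weights, 28 when scaled by library size alone and 28 by upper quartile factors. It was 27 to 36 with 1 tumour left out. In the same order, 37.6%, 24.8%, 24.3% and 25.4% to 31.7% of all genes then tested were called higher, against 30.9% in the main fit. The number of members that fell was 3 with limma-voom and quality weights, 2 when scaled by library size alone and 2 by upper quartile factors. It was 1 to 2 with 1 tumour left out. In the same order, 39.0%, 33.8%, 34.6% and 20.6% to 33.6% of all genes then tested were called lower, against 28.4% in the main fit. The median over members was 0.82 with upper quartile factors. All called genes numbered 8016 to 11405 under the other alternatives and 7143 to 9833 with 1 tumour left out. The causes were not tested. DESeq2 gave no adjusted p for Slc7a11. No paired analysis was possible because the labels give the tumours no shared replicate numbers. Chac1, Slc7a3 and Slc7a11 in lean tumours are the members nearest to the limit of 3 counts.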
